A study of Solanum lycopersicum and Solanum pimpinellifolium with 30 samples.

Results

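Ethylene synthesis in ripe tomato fruit was read on 9 probe sets for 7 genes. The ACC synthase genes ACS1A, ACS2, ACS4 and ACS6 and the ACC oxidase genes ACO4 and ACO5 had 1 probe set each, and ACO6 had 3. They were taken by their symbols in the platform annotation, out of 10038 probe sets that are not array controls. The samples were 30 one-colour Affymetrix tomato arrays of fruit pericarp, with 3 biological replicates from each of 10 cultivars. The cultivars were LA1589, an accession of the wild small-fruited species Solanum pimpinellifolium, and the landraces 3806, 3815, 3836, 3842, 549, 557, 560, 571 and 572 of the cultivated tomato Solanum lycopersicum. All were untreated plants from 1 field trial, 18 plants per accession in 3 parcels of 6, and the red mature fruit was freed of skin, locule tissue and seeds. Cultivar is the only difference that the labels give between groups, the wild species is represented by 1 accession, and how plants were pooled into replicates is not given.

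Ethylene is the gas that sets off and drives ripening in tomato. ACC synthase turns S-adenosylmethionine into ACC, which is often the limiting step, and ACC oxidase turns ACC into ethylene. Green tomato fruit makes little ethylene, with ACS1A and ACS6 as its synthase genes, while the burst at ripening is fed by ACS2 and ACS4 and stimulates itself. ACO4 is one of the oxidase genes known from ripening fruit, and ACO5 and ACO6 are further members of the oxidase family.

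All values are log2 signals after quantile normalisation between arrays, and a difference of 1 is a 2-fold difference. The background of an array was the 95th percentile of its 63 probe sets for foreign reporter sequences, and over the arrays it ran from 0.37 to 2.41. The mean of the spiked bacterial controls, as deposited, ran over the arrays from 7.84 to 10.51, and by cultivar from 8.10 ± 0.12 in 571 to 10.22 ± 0.27 in 557 (SD, n = 3 arrays). Markers were read beside the tissue label. All 8 ripe fruit markers that could be read lay above background on most arrays, but the pectin gene PME2.1 was at background on all 3 arrays of LA1589, and the ester gene AAT and the galactosidase gene TBG4 on 2 of 3 arrays of 572. TBG4 was at background on 6 arrays in all, and on most arrays of 2 landraces, 572 among them. Of 3 listed seed markers 1 could be read, TAS14, at background on 23 arrays. Of 3 listed epidermis markers 2 could be read, LE16 and TSW12, at background on 26 and 29 of the 30. No array of seed or skin shows that these probe sets can rise, so their low signal cannot check the label. The markers of photosynthetic, unripe tissue that could be read, PSBO, PSBR and PETE, lay above background on all 30 arrays. Their highest landrace means were 7.33 in 549 for PSBO, and 9.99 and 8.33 in 560 for PSBR and PETE. Whether the cultivars differed in ripeness was not tested.

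Among the 9 landraces, ethylene synthesis genes differed widely, and which genes stood out varied from landrace to landrace. Against the mean of the other 8, landrace 557 was high in ACS2, and 560 in ACS2, ACS6 and, on 1 probe set, ACO6. Landrace 572 was high in ACO5 and 3806 in ACS6. ACS2 was low in 3806, ACS4 in 3836, ACO6 in 3815, ACO5 in 560 and ACO4 in 572. Of these differences only that of ACS6 in 560 passed under all settings run. The difference of ACO4 in 572 turned sign, to 0.43, with the spiked control mean as a covariate. Landraces 3842, 549 and 571 stood out in none of the genes. They also had few calls over the whole array, each with at most 0.837% of all probe sets higher and at most 0.667% lower. In limma's moderated F test on the 27 landrace arrays, which asks whether the 9 means are equal, 7 of the 9 probe sets passed a Benjamini-Hochberg adjusted p of 0.05, among them at least 1 for each of the 7 genes, where 39.1% of all probe sets tested passed. The median range of landrace means (highest minus lowest) was 2.64 over the 9 probe sets and 0.89 over all probe sets tested. These medians were not matched for signal level. By mean signal the 9 ranked from above 31.5% of all probe sets, for 1 ACO6 probe set, to above 95.4%, for ACS4. Since pericarp is bulk tissue, fewer cells of a type and less RNA per cell cannot be told apart in these values.

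The ripening synthase gene ACS2 had the most called pairs of cultivars among the synthase genes. Its 3 replicates gave 8.08, 6.28 and 7.99 in LA1589. They gave 7.39, 8.09 and 7.32 in 557 and 6.99, 6.26 and 7.35 in 560. These 3 cultivars formed the top of the order, with every array above 6. Landrace 549 had 5.55, 7.89 and 3.08, 3815 had 6.29, 4.48 and 5.07, and 3842 had 5.67, 4.14 and 4.33. The replicates of 549 were far apart, and 1 of them, like 1 of 3815, lay among those of the top 3 cultivars. Values were 3.30, 4.46 and 4.65 in 571 and 4.37, 4.14 and 3.73 in 572, 2.59, 4.77 and 2.89 in 3836 and 1.30, 3.60 and 3.19 in 3806. Landraces 3836 and 3806 closed the order, and none of their arrays reached those of 557 or 560.

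The highest landrace mean of ACS2, 7.60 ± 0.43 in 557, lay 4.91 above the lowest, 2.70 ± 1.23 in 3806 (SD over 3 arrays each; adjusted p = 0.00115 in limma's F test), a 30.0-fold range. This range was wider than that of 99.7% of all probe sets. Without replicate 1 of 3806 it was 4.21. Of the 45 pairs of cultivars 14 differed in ACS2, where 9.4% of all probe set and pair combinations did. Landrace 557 was higher than 3806, 3836, 3842, 571 and 572 (differences 4.91, 4.18, 2.89, 3.46 and 3.52), and 560 was higher than 3806, 3836, 571 and 572. LA1589 was higher than the same 5 landraces as 557, by 4.75, 4.03, 2.73, 3.31 and 3.37. LA1589 lay 0.58 above 560, its lower neighbour, and 0.15 below 557, and these differences did not pass.

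ACS4, the second ripening synthase gene, was above background on all 30 arrays and differed less between most cultivars. It read 7.37, 7.51 and 6.47 in LA1589, 8.56, 7.88 and 7.93 in 557, 8.35, 8.49 and 7.27 in 572 and 7.62, 8.11 and 8.22 in 3842. It read 7.69, 6.93 and 7.79 in 560, 7.97, 8.08 and 5.47 in 549, 8.40, 5.53 and 7.03 in 3815 and 6.95, 6.55 and 6.63 in 571. All of these arrays lay above 5. Landrace 3806 had 7.62, 4.23 and 6.55, and 3836 had 5.32, 6.09 and 3.11. Both of these landraces were uneven, and the lowest arrays of the series came from them, replicate 3 of 3836 and replicate 2 of 3806.

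The range of ACS4 from 557, 8.12 ± 0.38, to 3836, 4.84 ± 1.55, was 3.28, or 9.74-fold (adjusted p = 0.0300). It rested on the 3836 arrays, being 2.42 without replicate 3 of 3836 (adjusted p = 0.114) and 3.91 without its replicate 2, and without its replicate 1 the adjusted p was 0.0555. All called pairs had 3836 as the lower cultivar: 557, 572, 3842 and 560 were higher than it, by 3.28, 3.20, 3.14 and 2.63. These 4 called pairs are 8.9% of the 45, near the 9.4% of all probe set and pair combinations. The cultivar orders of ACS2 and ACS4 were alike in part. Over the 10 cultivar means, which share arrays and normalisation, Pearson's r was 0.56 and Spearman's rho 0.58. Landrace 572 marks the difference between them, with the second highest mean of ACS4 and the third lowest of ACS2.

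**Figure D1:**
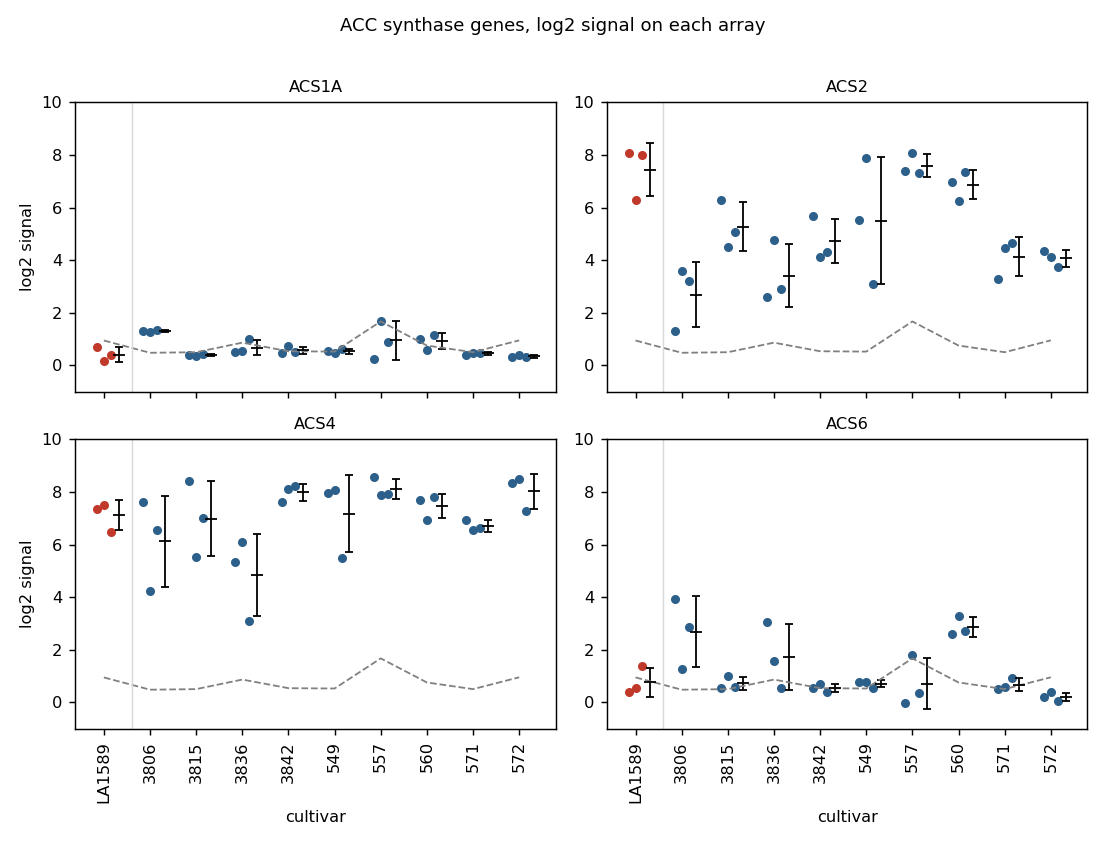
Log2 signal of the 4 ACC synthase genes (vertical axis) in each cultivar (horizontal axis). Red points are the 3 LA1589 arrays, blue points the 3 arrays of each landrace, black marks the mean with its SD, and the dashed line the mean background of each cultivar's arrays. ACS2 was highest in 557, at 7.60, and lowest in 3806, at 2.70, and ACS6 stood clear of the background in 560, 3806 and, in part, 3836.

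ACS6, a synthase gene of green fruit, was above background on 19 of the 30 arrays of red fruit, but only 3 landraces had a mean above 1. It stood at 2.58, 3.28 and 2.72 in 560, 3.95, 1.26 and 2.86 in 3806 and 3.04, 1.57 and 0.54 in 3836. The arrays of 560 were even, whereas those of 3806 and of 3836 were spread over more than 2 units. LA1589 had 0.37, 0.53 and 1.38, with 2 of 3 arrays at background. The means of the other 6 landraces ran from 0.72 in 3815 down to 0.22 in 572, where all 3 arrays were at background. The range from 560, 2.86 ± 0.37, to 572, 0.22 ± 0.15, was at least 3.75-fold, with the arrays of 572 raised to their background (adjusted p = 0.00180).

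Of the 45 pairs 11 differed in ACS6 (24.4%), beside 9.4% of all probe set and pair combinations. Landrace 560 was higher than LA1589, 3815, 3842, 549, 557, 571 and 572, with a difference of 2.15 over 549. Landrace 3806 was higher than LA1589, 549, 557 and 572, with a difference of 1.98 over 549. Differences over LA1589, 557 and 572 are not given, since most of their arrays were at background. ACS1A, the other synthase gene of green fruit, was near background throughout, with 13 of 30 arrays above it. Its arrays in 3806 read 1.32, 1.27 and 1.35, above background and close together, and those of 560 and 3842 were above background too. Its arrays in LA1589 ran from 0.16 to 0.70, all at background, and those of the other landraces from 0.26 to 1.71. The landrace means of ACS1A ran from 1.31 ± 0.04 in 3806 to 0.34 ± 0.06 in 572, at least 1.28-fold (adjusted p = 0.0234), and this call was lost when any 1 of the 3 arrays of 3806 was left out (adjusted p from 0.0558 to 0.0700). The 3 called pairs of ACS1A were 3806 over LA1589, 3815 and 572, or 6.67% of its pairs, below the 9.4% over all probe sets. The 2 green fruit genes followed each other over the cultivar means (r = 0.78, rho = 0.56, n = 10 means from the same arrays), with 3806 high in both, whereas over the deviations of the 30 arrays from their cultivar means r was 0.15.

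Among the oxidase genes ACO5 had the widest range. Landrace 572 had 7.69, 3.97 and 5.54, and 3836 had 3.64, 3.02 and 2.98. Landrace 3806 had 3.83, 3.19 and 2.12, and 549 had 5.24, -0.18 and 4.36. The 572 arrays were spread over nearly 4 units but lay above every array of the other cultivars except 2 of 549. Landrace 549 joined 2 high arrays with 1 at background. ACO5 read 0.84, 1.14 and 3.37 in 3815, 1.65, 1.23 and 0.94 in 571 and 1.12, 0.99 and 0.95 in 3842. It was 0.82, 1.11 and -0.03 in LA1589, 0.26, 1.36 and 0.39 in 557 and 0.46, 0.18 and 0.60 in 560, and in these 3 cultivars 2, 2 and 3 arrays were at background.

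The range of ACO5 from 572, 5.73 ± 1.86, to 560, 0.41 ± 0.22, was at least 31.5-fold (adjusted p = 0.00238). As fitted it was 5.32, and it was 4.34 without replicate 1 and 6.20 without replicate 2 of 572. Landrace 572 was higher in ACO5 than 3815, 3842 and 571, by 3.95, 4.71 and 4.46. It was also higher than LA1589, 557 and 560, and 3836 and 3806 were higher than 560, where the size is only bounded because most arrays of the lower cultivar were at background. These were the 8 called pairs of 45 (17.8%, beside 9.4% over all probe sets). The step from 572 down to its neighbour 3836, 2.52 with a 95% interval from 0.58 to 4.45, did not pass (adjusted p = 0.131). The order of ACO5 means ran against that of ACS2: LA1589, 557 and 560, highest in ACS2, had the 3 lowest ACO5 means. Most of their ACO5 arrays were at background, so their places in that order are not resolved. The mean background of 557, 1.67, lay above the ACO5 means of 571, 1.27, and 3842, 1.02. Over the 10 cultivar means r was -0.64 and rho -0.72, as a description of means that come from the same arrays and lie in part at background. The deviations of the 30 arrays from their cultivar means ran the same way, with an r of -0.48 between ACO5 and ACS2.

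ACO4, an oxidase gene of ripening fruit, was measurable in all cultivars. It read 4.63, 3.87 and 3.15 in 560, 3.09, 5.26 and 3.18 in 549, 3.99, 3.84 and 3.34 in 571 and 5.13, 2.12 and 3.08 in 3815. It read 2.46, 2.68 and 1.70 in LA1589, 4.40, 2.59 and 2.88 in 3842, 2.87, 2.24 and 2.27 in 3836, 2.08, 2.77 and 2.15 in 557 and 2.27, 1.48 and 2.87 in 3806. Most cultivars overlapped, and 549 and 3815 each had 1 array above 5 beside others near or below 3. Landrace 572 was lowest, with 1.54, 0.31 and 2.22. The range from 560, 3.89 ± 0.74, to 572, 1.36 ± 0.97, was 2.53 or 5.77-fold (adjusted p = 0.0268). Only 560, 549 and 571 against 572 were called among the 45 pairs, with differences of 2.53, 2.48 and 2.37. These 3 called pairs are 6.67% of the 45, below the 9.4% over all probe sets. Without replicate 2 of 572, its lowest array, the adjusted p of the range was 0.0788, and without its replicate 1 it was 0.0534. With array weights it was 0.0656. In 572 and in 557, 1 array each was at background. With the array of 572 raised to its background the range was 4.70-fold.

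ACO6 was read on 3 probe sets that differed in how far they rose above background. On the first, whose name ends in A1_at, all 30 arrays lay above background. On the second and the third, whose names end in S1_at, 19 and 10 did. Across the 10 cultivar means the first and the third went together closely (r = 0.98), and the second less so with either (r = 0.70 with the first and 0.71 with the third). On the first probe set ACO6 read 5.47, 4.02 and 4.10 in LA1589, 4.51, 4.25 and 3.32 in 560, 4.05, 3.33 and 3.45 in 3842 and 3.40, 3.16 and 4.27 in 571. It read 2.22, 4.97 and 3.29 in 549, 2.04, 3.67 and 4.01 in 3806, 2.62, 3.66 and 2.55 in 3836 and 3.34, 2.63 and 2.41 in 557. All arrays of these 8 cultivars lay above 2. Those of LA1589 lay above every array of 557, 3836 and 3806 and overlapped with the other 4, while the 7 landraces overlapped among themselves. Landrace 572 had 2.01, 2.08 and 1.98, the most even triplet, and 3815 had 1.46, 0.95 and 1.22. The 3 arrays of 3815 were below every other array of the series.

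The range of ACO6 from 560, 4.03 ± 0.62, to 3815, 1.21 ± 0.25, was 2.82 or 7.04-fold on the first probe set (adjusted p = 0.00419). On all 3 probe sets 3815 was the lowest cultivar, and on the others its arrays were all at background. The other probe sets did not pass the F test (adjusted p = 0.0749 for the second and 0.282 for the third). The second passed without replicate 1 of 549 (adjusted p = 0.0398) or replicate 3 of 560 (adjusted p = 0.0478) and with array weights (adjusted p = 0.0280), and the third without replicate 2 of 549 (adjusted p = 0.0368). In the pairs, LA1589 was higher than 3815, 557 and 572 on the first probe set, by 3.32, 1.73 and 2.50. Landraces 560, 3842, 571 and 549 were higher than 3815, and 560 was higher than 572, which made 8 called pairs of 45 (17.8%). The second probe set had 3 called pairs (6.67%), 549, 557 and 560 against 3815, and the third had 0. Over all probe sets the share was 9.4%. On the second probe set 2 of the 3 arrays of 557 and all 3 of 3815 were at background, so that call compares values mostly at background.

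**Figure D2:**
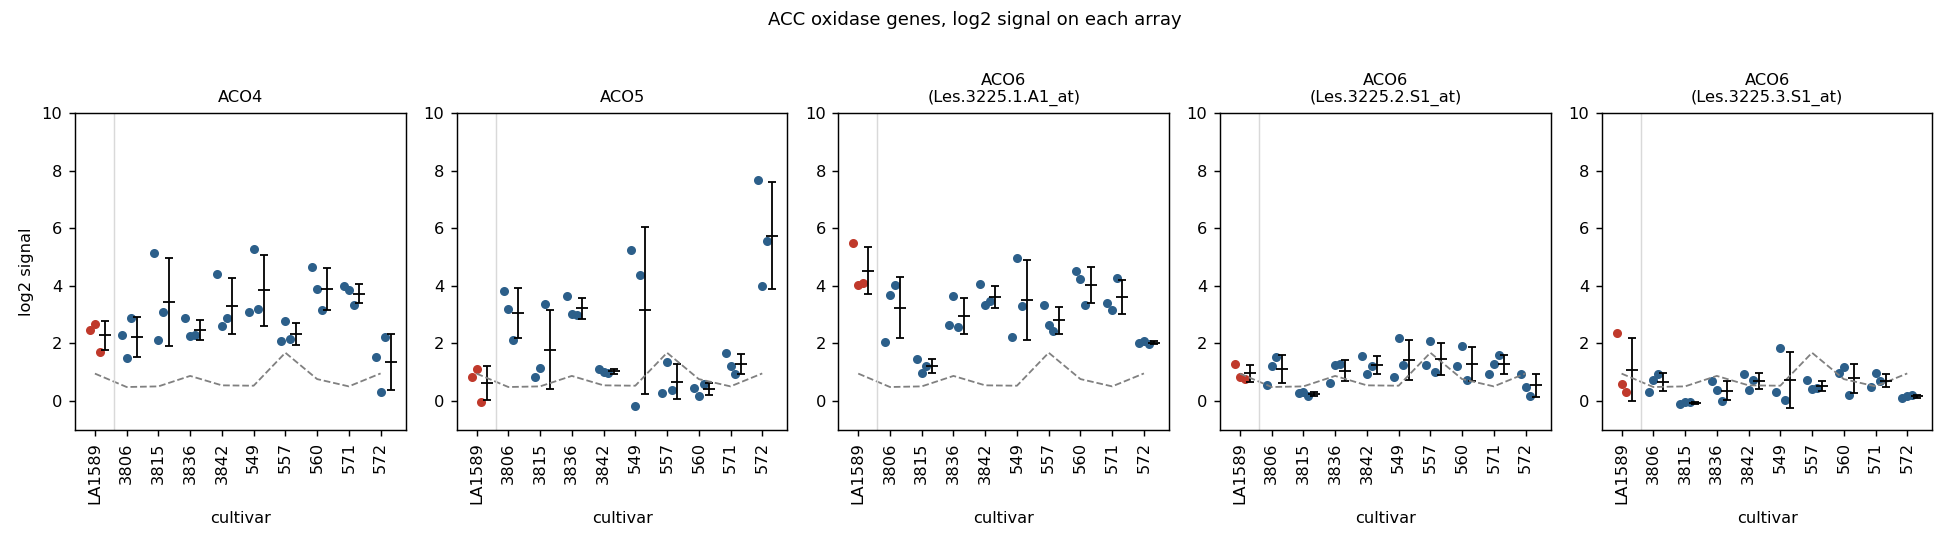
Log2 signal of the ACC oxidase genes ACO4, ACO5 and, on 3 probe sets, ACO6 (vertical axis) in each cultivar (horizontal axis). Points are arrays (LA1589 red, landraces blue), black marks the mean with its SD, and the dashed line the mean background of each cultivar's arrays. ACO5 reached a mean of 5.73 in 572 and was at background in 560, and ACO6 was lowest in 3815 on each of its probe sets.

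Replicates of 1 landrace could differ as much as landraces did, and in 549 they did so in several genes at once. Replicate 2 of 549 had the highest ACS2, ACO4 and ACO6 of the 3, at 7.89, 5.26 and 4.97, while its ACO5 was the lowest, at -0.18. Over the deviations of all 30 arrays from their cultivar means, ACO6 on its first probe set went with ACS2 (r = 0.61) and against ACO5 (r = -0.56), as descriptions. Replicates 1 and 3 of 549 read 5.24 and 4.36 for ACO5. In 3806, replicate 1 had the highest ACS4, ACS6 and ACO5 and the lowest ACS2 and ACO6 of its landrace. Single steps in the orders were not resolved. Of the 81 differences between neighbouring cultivars, 9 for each probe set, 0 passed in limma, with 1 at an unadjusted p under 0.05, that between 572 and 3836 in ACO5.

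Each landrace was next compared with the mean of the other 8. Of these 81 comparisons, 9 landraces on 9 probe sets, 13 passed, 7 of them higher and 6 lower, where 8.91% of all such comparisons over the array passed. Landrace 560 had the most, with 3 higher and 1 lower. In 560 ACS2 was higher by 2.19 ± 0.63 (SE; adjusted p = 0.0137), with 6.87 in 560 against 4.68 in the others. ACS6 was at least 3.03-fold higher in 560 (adjusted p = 0.00181), with 2.86 in 560, and ACO6 on its first probe set was higher by 1.16 ± 0.40 (adjusted p = 0.0416). ACO5 was at least 3.32-fold lower in 560 (adjusted p = 0.0436), with 0.41 against 2.49. Over all probe sets 11.8% were higher and 10.8% lower in 560. The ACS2 call was lost without replicate 1 or 3 of 560 (adjusted p = 0.0731 and 0.0887). That of ACO6 was lost without replicate 1 or 2 of 560 (adjusted p = 0.250 and 0.176), and without replicate 3 of 549, 1 or 2 of 571, 2 of 3815, 1 of 3836 or 2 or 3 of 3842 (adjusted p from 0.0505 to 0.0529). That of ACO5 was lost when any 1 replicate of 560 was left out (adjusted p from 0.106 to 0.161), and without replicate 3 of 549 or 572, 2 of 557, 1 or 2 of 571, 3806 or 3836, or any 1 of 3842 (adjusted p from 0.0504 to 0.0546). With the spiked control mean as a covariate the adjusted p was 0.0620 for ACS2, 0.114 for ACO6 and 0.185 for ACO5. With LA1589 added to the comparison group it was 0.0953 for ACO6 and 0.0593 for ACO5. The ACS6 call held under all settings run. The summed signal of the photosynthesis markers PSBO, PSBR and PETE, the 3 of 8 listed that could be read, lay in 560 between 10.15 and 10.65, against 7.15 to 10.24 in the other cultivars (log2 of the sum), and its part in these results was not tested.

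Landrace 572 differed in both directions. ACO5 was higher in 572 by 3.91 ± 0.73 (adjusted p = 0.000817), with 5.73 in 572 against 1.82 in the others, which is at least 13.1-fold. Without replicate 1 of 572 the difference was 2.94, and without replicate 2 it was 4.79. ACO4 was lower by 1.79 ± 0.50 (adjusted p = 0.0191), with 1.36 against 3.15. Over all probe sets 7.34% were higher and 6.62% lower in 572. Without replicate 2 of 572 the ACO4 difference was -1.27 (adjusted p = 0.184), and without replicate 1 the adjusted p was 0.0638. With array weights the difference was -1.58 (adjusted p = 0.0871). The spiked controls averaged 10.12 ± 0.22 in 572. With that control mean as a covariate the ACO4 difference was 0.43 (adjusted p = 0.834) and the ACO5 difference 2.90 (adjusted p = 0.274). The summed signal of the 8 ripe fruit markers was lowest in 572, between 10.23 and 10.69 against 10.65 to 12.12 in the other cultivars, and its part was not tested.

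In 557 only ACS2 was called, higher by 3.01 ± 0.63 (adjusted p = 0.00204), with 7.60 in 557 against 4.59 in the others. This was an 8.07-fold difference, in a landrace with 12.3% of all probe sets higher and 11.1% lower. As cultivar means, 557 had the highest spiked control mean and the highest background, which ran from 1.27 to 2.41 over its arrays. With the control mean as a covariate the ACS2 difference was 3.51 (adjusted p = 0.122), and with array weights it was 3.04 (adjusted p = 0.0747).

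Landrace 3806 had 3 calls. ACS2 fell by 2.51 ± 0.63 in 3806 (adjusted p = 0.0221), with 2.70 against 5.20 in the others, ACS6 was at least 2.66-fold higher (adjusted p = 0.0187), and ACS1A was at least 1.39-fold higher (adjusted p = 0.0204). Over all probe sets 3.11% were higher and 2.65% lower in 3806. Replicate 1 carried much of it: without that array the ACS2 difference was -1.81 (adjusted p = 0.160) and the ACS6 difference 1.04 (adjusted p = 0.184), against 1.67 on all arrays. Without replicate 2 the ACS6 difference was 2.39, and without replicate 3 its adjusted p was 0.116. With the spiked control mean as a covariate it was 0.98 (adjusted p = 0.198). The ACS2 call was also lost without replicate 2 or 3 (adjusted p = 0.0607 and 0.0766), and that of ACS1A when any 1 of the 3 was left out (adjusted p from 0.0589 to 0.116).

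In 3815 ACO6 was lower on 2 of its 3 probe sets, where 4.58% of all probe sets were higher and 3.72% lower. On the first it fell by 2.01 ± 0.40 (adjusted p = 0.00345), with 1.21 in 3815 against 3.22 in the others. On the second it was at least 1.58-fold lower (adjusted p = 0.0332), a call that was lost when any 1 of the 3 arrays of 3815 was left out (adjusted p from 0.0737 to 0.195). Without replicate 2 of 3815 the first had an adjusted p of 0.0503. The summed signal of the photosynthesis markers lay between 7.15 and 9.20 in 3815, against 8.12 to 10.65 in the other cultivars, with PSBO, PSBR and PETE each lowest there among the landraces, and its part was not tested. In 3836 ACS4 fell by 2.49 ± 0.61 (adjusted p = 0.0262), with 4.84 in 3836 against 7.33 in the others, where 2.05% of all probe sets were higher and 1.74% lower. Without replicate 3 of 3836 the ACS4 difference was -1.62 (adjusted p = 0.229), without replicate 2 it was -3.11, and without replicate 1 the adjusted p was 0.0740. With the spiked control mean as a covariate it was -1.52 (adjusted p = 0.331). In 3842, 549 and 571, 0 of the 27 comparisons passed in limma, and 0 had an unadjusted p under 0.05. Over all probe sets 0.0797% were higher and 0.0797% lower in 3842, 0.837% higher and 0.667% lower in 549, and 0.408% higher and 0.339% lower in 571.

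**Figure D3:**
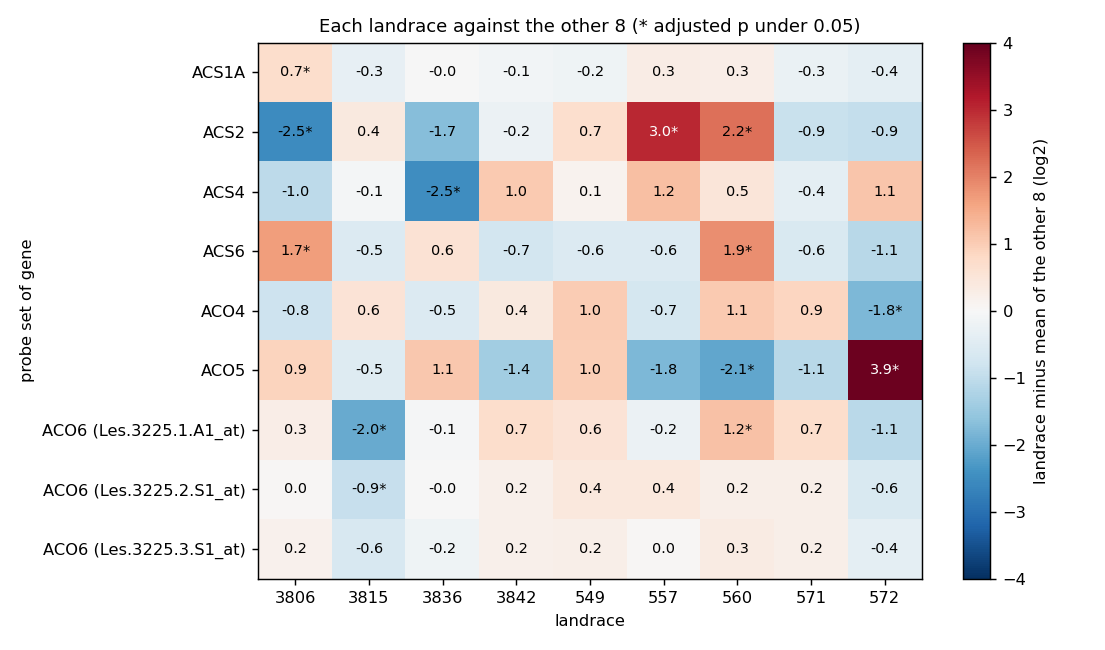
Difference of each landrace (horizontal axis) from the mean of the other 8 for each probe set (vertical axis), in log2 units, as colour and as printed value. Asterisks mark the 13 differences with an adjusted p under 0.05, the highest being ACO5 in 572, at 3.91, and the lowest ACS2 in 3806, at -2.51.

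The wild accession was set against the average of the 9 landrace means, with all 30 arrays fitted together. The arrays are tomato arrays, and whether sequence differences of the wild species under the probes change its signals was not tested. Every LA1589 difference given here is therefore one of signal. Of the 9 probe sets 2 were higher in LA1589, where 8.58% of all probe sets were, and 0 were lower, where 6.96% were (15.5% in either direction). One probe set, ACO5, was lower at an unadjusted p under 0.05. The median size of the difference, regardless of sign, was 0.58 over the 9 probe sets and 0.23 over all probe sets. ACS2 was higher by 2.53 ± 0.62 (SE; adjusted p = 0.00659), with 7.45 ± 1.01 in LA1589 against 4.92 in the landraces, a 5.76-fold difference. The LA1589 mean exceeded 8 of the 9 landrace means, and its arrays overlapped with those of 557, 560 and single arrays of 549 and 3815. Without replicate 1 or 3 of LA1589 the adjusted p was 0.0730 or 0.0573, and without replicate 2 the difference was 3.11.

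ACO6 on its first probe set was higher in LA1589 by 1.53 ± 0.41 (adjusted p = 0.0116), with 4.53 ± 0.82 against 2.99, a 2.90-fold difference, and above all 9 landrace means. Its 3 arrays overlapped with those of 560, 3842, 571 and 549. Without replicate 1 of LA1589, its highest array, this was 1.06 (adjusted p = 0.187). The other ACO6 probe sets differed by -0.11 (95% interval from -0.64 to 0.42) and 0.58 (from -0.05 to 1.21) and did not pass. In a fit of 1 mean per cultivar, with the spread between landraces as the error, neither ACS2 nor ACO6 passed (adjusted p = 0.638 and 0.597), nor did they with cultivar as a random block (adjusted p = 0.371 and 0.373). The spiked controls averaged 9.50 ± 0.42 in LA1589, and with their mean as a covariate ACS2 had an adjusted p of 0.0260 and ACO6 of 0.0541. With array weights the ACO6 difference was 1.36 (adjusted p = 0.0939). The summed signal of the ripe fruit markers lay between 10.72 and 11.29 in LA1589, against 10.23 to 12.12 in the landraces, and its part was not tested.

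The remaining genes did not pass. Most LA1589 arrays were at background for ACS1A, ACS6 and ACO5, and their differences are given as fitted. ACS4 differed by 0.07 (95% interval from -1.14 to 1.28), ACO4 by -0.67 (from -1.67 to 0.33), ACS6 by -0.44 (from -1.27 to 0.38) and ACS1A by -0.27 (from -0.63 to 0.09). ACO5 differed by -1.62 (from -3.07 to -0.18; adjusted p = 0.125), with 0.63 ± 0.59 in LA1589 against 2.26 in the landraces. Its interval left out 0, but the adjusted p did not pass. Without replicate 2 of 549, the array of that landrace with ACO5 at background, the ACO5 difference was -1.81 and passed (adjusted p = 0.0136), as it did without landrace 549, at -1.51 (adjusted p = 0.0436). The ripening synthase gene ACS2 and not ACS4 was thus called in LA1589, although whether the 2 differences differ from each other was not tested.

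**Figure D4:**
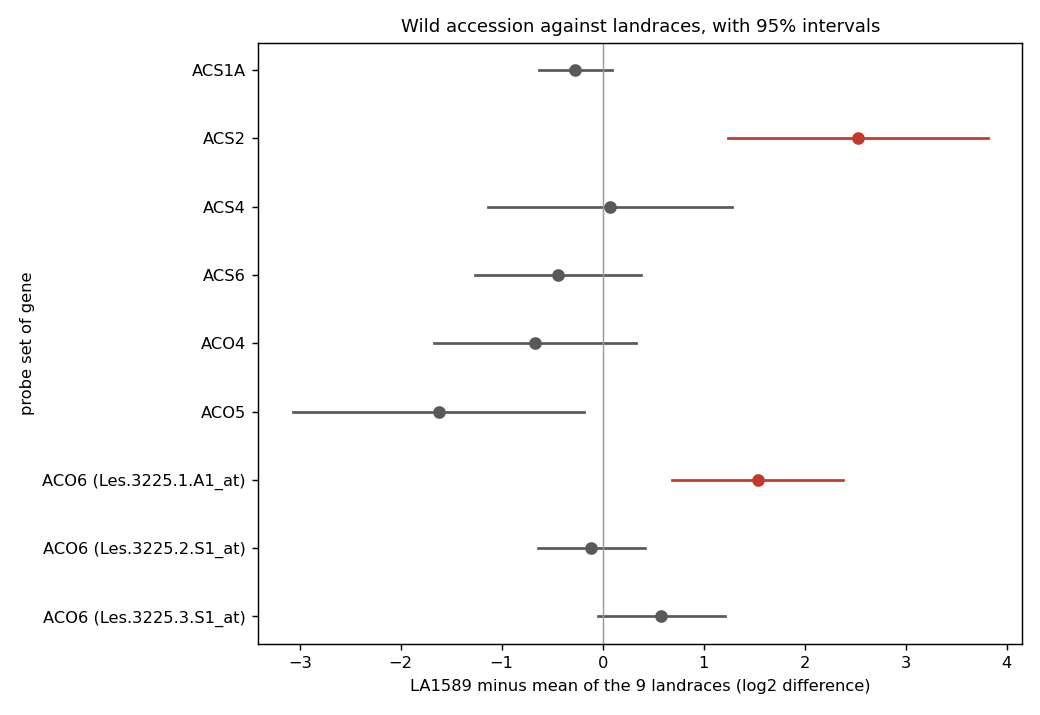
LA1589 minus the mean of the 9 landraces (horizontal axis, log2 difference) for each probe set (vertical axis). Points are the estimates of the fit, bars their 95% intervals, and red marks an adjusted p under 0.05, which ACS2, at 2.53, and the first ACO6 probe set, at 1.53, reached.

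Other genes of the pathway were read from 6 lists, with 37 of 45 listed genes measured. Their counts stand against 39.1% of all probe sets past the F test, and 8.58% higher and 6.96% lower in LA1589. For the precursor, SAM1 and SAM3 make S-adenosylmethionine. Both passed the F test among the landraces, with ranges of 1.08 and 2.07 (adjusted p = 0.00198 and 0.00173), and both were highest in 572, the landrace highest in ACO5. SAM3 was higher in LA1589 by 1.23 ± 0.32 (adjusted p = 0.00903), with 6.49 in LA1589 against 5.26 in the landraces, and SAM1 differed by -0.16, which did not pass. The further synthase genes ACS3, ACS5, ACS7 and ACS8 were at background on 29, 28, 29 and 26 of the 30 arrays. Of these 4, 0 passed either comparison in limma, with 0 at an unadjusted p under 0.05 in the F test and 1 in that of LA1589. ACS1B was not analysed here. In the tomato assembly SLM_r2.1 ACS1B is the gene next to ACS1A, and whether the ACS1A probe set reads both was not tested.

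Of 6 receptor genes 3 passed the F test, where 39.1% of all probe sets did. In LA1589 0 of the 6 passed in limma, with 1 at an unadjusted p under 0.05, ETR6, which differed by -1.30 (adjusted p = 0.0565). ETR6 read 2.16 ± 1.97 in LA1589 (SD), with 1 of 3 arrays at background, against 3.46 in the landraces. Of 18 signalling genes 10 passed the F test, against the same 39.1%, among them the response factor genes ERF2 and ERF3, with ranges of 4.17 and 3.78 (adjusted p = 9.2e-05 and 0.0228), while the receptor gene ETR2 had a range of 2.38 (adjusted p = 7.46e-05). ERF2 and ERF3 were both highest in 3836, the landrace lowest in ACS4, while ERF2 was lowest in 560 and ERF3 in 557. In LA1589 6 signalling genes were higher and 1 lower, where 8.58% and 6.96% of all probe sets were. EIN2, which carries the signal to the nucleus, was higher by 1.85 ± 0.32 (adjusted p = 0.000227). E8, a gene that ethylene induces in ripening fruit, was lower in LA1589, with 5.68 ± 0.63 against 8.21, a difference of -2.53 ± 0.44 (adjusted p = 0.000231), and among the landraces it ran from 9.04 in 571 to 6.32 in 3815 (adjusted p = 0.0181). In signal, E8 and ACS2 thus stood on opposite sides in LA1589. Of 6 ripening regulator genes 2 passed the F test, beside the 39.1% of all probe sets. In LA1589 3 of them were higher and 1 lower, beside the 8.58% and 6.96% over all, with the MADS-box gene AG1 higher by 1.68 ± 0.30 (adjusted p = 0.000384). Over all 37 genes 18 passed the F test, and 10 were higher and 3 lower in LA1589, to be read beside those same shares over all probe sets.

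The described genes with the most similar profile were sought for each probe set among 619 genes, by Pearson's r over the 10 cultivar means. These r are descriptions over means from shared arrays. The genes were picked by this r, so a shared highest or lowest cultivar follows in part from the choice. Some of the genes were mostly at background: LysRS in 9 cultivars, CEL8 in 6, Asc-1 in 4, PTI6, EXPA6 and ETR5 in 3, MPK3 in 2 and gtsatom in 1. For ACS2 they were the hexose transporter gene HT1 (0.93), which was at background in all 10 cultivars, SPM1 (0.88) and PT1 (0.85). SPM1 ran from 4.34 in LA1589 to 2.87 in 3806, the same landrace that was lowest in ACS2. For ACS4 they were the cellulase gene Cel2 (0.87), gtsatom (0.86) and CEL8 (0.86). Cel2 shared both ends with ACS4, with 8.83 in 557 and 4.59 in 3836.

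For ACS6 they were PTI6 (0.87), CBF1 (0.84) and Asc-1 (0.83), and for ACS1A the protein kinase gene MPK3 (0.87), the arginine decarboxylase gene adc1 (0.85) and LysRS (0.82). For ACO4 they were the gene SAHH of S-adenosylhomocysteine hydrolase (0.84), the expansin gene EXPA6 (0.82) and pip1 (0.82), all lowest in 572 as ACO4 was. For ACO5 they were the ethylene receptor gene ETR5 (0.87), the light signalling gene COP1 (0.85) and the ascorbate peroxidase gene APX2 (0.85), all highest in 572 as ACO5 was. For the first ACO6 probe set they were ACS5 (0.90), which was at background in all 10 cultivars, the metallothionein gene MTA (0.85) and IMP3 (0.83). MTA and IMP3 were both lowest in 3815, as ACO6 was. For the second they were RAB1B (0.88), CGS (0.84) and ribA (0.82), and for the third ACS5 (0.91), copz1 (0.82) and HRBP1 (0.79).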

How the data were processed

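RNA of ripe fruit pericarp from 10 cultivars was hybridised to 30 arrays. The deposited values are log2 signals of 10209 probe sets; the sources used here do not name the authors' software, background correction or normalisation. Nor is the log base stated, and it was taken as 2. The spiked controls rose by a median of 0.80 per doubling of their standard amounts (0.42 to 0.99 over the arrays), so folds assume that base.

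Array medians differed by 0.51, above a limit of 0.5, and all values were quantile normalised. The 171 control probe sets were left out of the tests, and 10038 probe sets remained. Of these, 909 carried a gene symbol. limma 3.58.1 in R 4.3.3 fitted 1 mean per cultivar, with two-sided tests and Benjamini-Hochberg adjustment over all 10038 probe sets within each comparison. LA1589 and the pairs used 30 arrays, the landrace comparisons 27. Where most arrays of the lower side were at background, a fold is given as a bound, with those arrays raised to their background. The code was tested on simulated data. Tables and figures used Python 3.11.15, scipy 1.17.1 and matplotlib 3.10.9.

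The genes, lists, tests and naming rule (all 7 genes, the 3 most similar described genes per probe set, all listed SAM, synthase and oxidase genes, and from the lists the 4 with the largest range and the 4 with the largest LA1589 difference) were chosen with earlier results of these data known. No label ties a replicate number to a parcel or day. Arrays with the same number did not deviate together (median r -0.01, over 0.1 in 22 of 135 pairs of arrays), so the numbers were not used as a block. The number of arrays limits the precision, and p-values measure the spread between these replicates. Genome coordinates and sequences were not used here.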

Additional observations from a re-analysis of the deposited data

How the results depend on the processing

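Besides the main settings, 51 alternatives were run where they applied, and every count or value given here is to be set against the 7, 2, 13 and 54 called differences of the landrace F test, LA1589, the single landraces and the pairs. The F test count kept within 1.5 times under all of them and ran from 6 to 8 with 1 array left out. The LA1589 count was 1 with array weights, 1 with the spiked controls as a covariate, 0 with 1 mean per cultivar and 0 with cultivar as a random block, and it ran from 0 to 3 with 1 array left out. Of the single landrace differences 6 were called with that covariate, and this count ran from 10 to 16 with 1 array left out. The pair count was 85 with array weights, 30 with that covariate, and ran from 44 to 79 with 1 array left out. With the replicate number as a block the 4 counts were 7, 2, 13 and 53, and this replicate block changed no call of a probe set in the F test, LA1589 or single landrace comparisons.

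Signs turned in 5 differences. Adding the spiked controls as a covariate gave 0.43 for ACO4 in 572. The other 4 are differences of LA1589 that did not pass under any setting. ACS4 was -0.17 with array weights, -0.047 without landrace 3806, -0.21 without landrace 3836, and from -0.13 to 0.39 with 1 array left out. ACS6 was 0.039 and ACO4 0.11 with the spiked controls as a covariate, and ACO6 on the third probe set ran from -0.052 to 0.97 with 1 array left out. The cause of these changes was not tested. Genes near background, above all ACS1A and the ACO6 probe sets whose names end in S1_at, can only be read as bounds.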
